A study of Rattus norvegicus with 12 samples.

Results

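The 10 genes described here encode the enzymes of catecholamine synthesis (Th, Ddc, Dbh and Pnmt), the vesicular amine transporter Slc18a1, the granule cytochrome Cyb561, and the granule proteins Chga, Chgb, Scg2 and Vgf. They were taken by gene symbol from a count table of 30454 rat genes, and each symbol matched 1 row. RNA was sequenced from rat PC12 cells in 12 libraries, 4 per group, all taken 48 h after treatment. All cells were first deprived of oxygen and glucose and then reoxygenated (OGD/R). The rTMS-MSCs group was then given both mesenchymal stem cells and repetitive transcranial magnetic stimulation at 10 Hz. The MSCs group had OGD/R and the stem cells, and the OGDR group had OGD/R alone. No group without OGD/R was analysed here, so every difference is between cells that had all been deprived. The labels name 1 cell line and give neither the species of the stem cells nor how they met the PC12 cells, and do not state whether RNA of the stem cells was in the libraries.

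PC12 is a line from a rat phaeochromocytoma, a tumour of the chromaffin cells of the adrenal medulla. Such cells are known for making dopamine and noradrenaline and for storing them in dense-core granules with acidic proteins, the granins. Synthesis runs from tyrosine to dihydroxyphenylalanine by Th, to dopamine by Ddc, to noradrenaline by Dbh inside the granule, and to adrenaline by Pnmt. Granins help granules form, are cut into secreted peptides, and leave the cell together with the amines.

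Levels are given as CPM, the count of a gene scaled by the library's total, and the libraries held 18246250 to 20471838 counts in genes. On this scale the 24 reads of Th in MSCs 1 were 1.21 CPM. CPM is not corrected for gene length, so levels are compared across groups and not between genes. Across groups, a gene is said to rise or fall only where the edgeR quasi-likelihood (QL) test, adjusted by Benjamini-Hochberg over all 13692 genes tested, gave a p under 0.05. The filter on low counts kept 6 of the 10 genes, and the other 4 (Ddc, Pnmt, Chga and Chgb) are described by their counts. Nothing in the labels ties a library to a culture of its own, so the p-values measure only how these samples spread, which may be technical. On the second principal component of all tested genes (18.1% of the variance) rTMS-MSCs 3 and MSCs 3 stood apart in opposite directions, at 32.4 and -30.8. With both left out, the members called against OGDR were still called, and Dbh was added in rTMS-MSCs against OGDR. In bulk RNA, fewer cells of a type and less RNA per cell cannot be told apart.

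Of the 10 genes, all known from chromaffin cells, 4 had between 0 and 17 counts over the 12 libraries. For Ddc, Chga and Chgb this goes against the label. For Pnmt it does not, since adrenaline is not among the amines named above for such cells. Ddc (ENSRNOG00000004327), whose enzyme makes dopamine, had 0 counts in all 12 libraries, which allows a level of up to 0.0127 CPM over the series (3 counts). In the RefSeq annotation of build GRCr8 Ddc is the only one of the 10 whose span overlaps other genes (Fignl1 and LOC120096667). Counting may have set reads of shared sequence aside as ambiguous, so this limit holds for reads assigned to Ddc. Pnmt (ENSRNOG00000046057), whose enzyme makes adrenaline, had 2 counts in all, 1 in MSCs 3 and 1 in OGDR 3. Chga (ENSRNOG00000052549), the founding granin, had 17 counts in all, with group sums of 5 in rTMS-MSCs, 5 in MSCs and 7 in OGDR. Chgb (ENSRNOG00000021269), another granin, had 4 counts, with sums of 0 in rTMS-MSCs, 1 in MSCs and 3 in OGDR. The exact Poisson intervals of the Chga sums were 1.62 to 11.7 counts in rTMS-MSCs, the same in MSCs, and 2.81 to 14.4 in OGDR, so a difference was not detectable at this depth. For Chgb, the exact Poisson interval of the sum of 0 in rTMS-MSCs reached up to 0.0474 CPM (3.69 counts over the group), and that of the OGDR sum from 0.00766 to 0.109 CPM. Poisson intervals and floors cover counting error only. Of 10 listed transcription factors of the lineage, 4 had no count and 5 were tested. Of those tested, Tfap2b averaged 29.3 CPM in rTMS-MSCs, 34.1 CPM in MSCs and 29.9 CPM in OGDR, and the other 4 had group means from 0.333 CPM (Gata2 in OGDR) to 2.03 CPM (Gata3 in rTMS-MSCs).

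**Figure D1:**
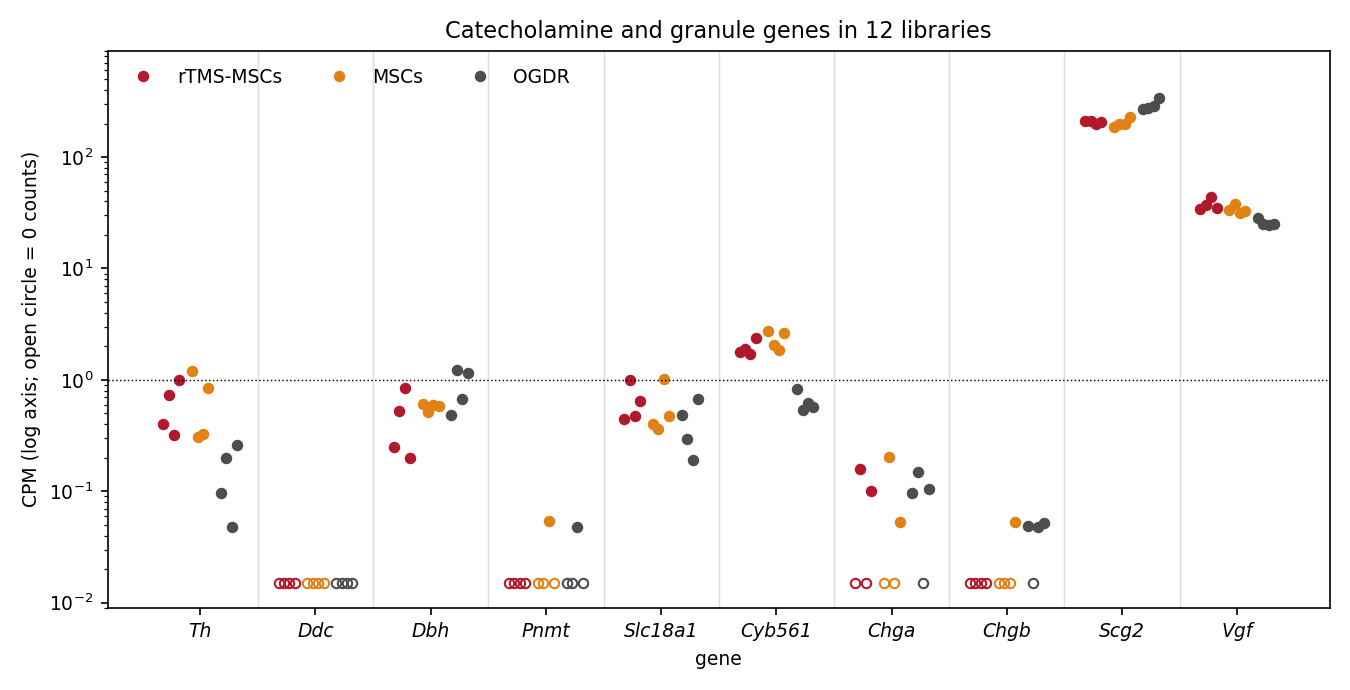
CPM (log axis) of the 10 genes in each of the 12 libraries, with groups ordered rTMS-MSCs, MSCs and OGDR within each gene; open circles are libraries with 0 counts and the dotted line is 1 CPM. Scg2 and Vgf stand above 20 CPM in every library, Ddc has no count, and the other 7 genes stay under 3 CPM.

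Th (ENSRNOG00000020410), whose enzyme sets the pace of the pathway, had at least 1 read in every library. Its CPM was 0.398, 0.737, 0.318 and 1.00 in rTMS-MSCs, 1.21, 0.308, 0.325 and 0.850 in MSCs, and 0.0974, 0.197, 0.0482 and 0.260 in OGDR. Every library with stem cells was above every OGDR library, yet within MSCs the reads ran from 6 to 24. The summed reads were 48 in rTMS-MSCs, 52 in MSCs and 12 in OGDR. Dbh (ENSRNOG00000006641), which turns dopamine into noradrenaline, gave 0.456 ± 0.298 CPM in rTMS-MSCs, 0.574 ± 0.0416 in MSCs and 0.884 ± 0.360 in OGDR (mean ± SD, n = 4 each). The Dbh libraries of OGDR ran from 0.487 to 1.23 CPM and overlapped both other groups. Slc18a1 (ENSRNOG00000011992), which loads amines into granules, gave 0.644 ± 0.254 CPM in rTMS-MSCs, 0.567 ± 0.312 in MSCs and 0.413 ± 0.213 in OGDR, again with overlap throughout.

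Cyb561 (ENSRNOG00000007433) passes electrons from cytosolic ascorbate into the granule, where Dbh uses ascorbate. Its CPM was 1.79, 1.90, 1.70 and 2.36 in rTMS-MSCs, 2.72, 2.05, 1.84 and 2.66 in MSCs, and 0.828, 0.542, 0.627 and 0.571 in OGDR. The lowest library with stem cells, rTMS-MSCs 3 with 32 reads, was above the highest OGDR library, OGDR 1 with 17 reads. Scg2 (ENSRNOG00000015055) encodes secretogranin II, the precursor of secretoneurin. It had 211, 210, 197 and 208 CPM in rTMS-MSCs, 185, 199, 197 and 230 CPM in MSCs, and 270, 276, 289 and 336 CPM in OGDR. All 8 libraries with stem cells were below the 4 OGDR libraries. Vgf (ENSRNOG00000001416) encodes a precursor of secreted neuropeptides that nerve growth factor is known to induce in PC12 cells. It had 34.2, 37.5, 43.8 and 34.9 CPM in rTMS-MSCs, 33.8, 38.0, 31.3 and 32.9 CPM in MSCs, and 28.2, 25.2, 24.5 and 24.9 CPM in OGDR. Here the libraries with stem cells were all above OGDR, and rTMS-MSCs 3 was the highest of the series. By group mean, the order was MSCs, rTMS-MSCs, OGDR for Th and Cyb561, rTMS-MSCs, MSCs, OGDR for Slc18a1 and Vgf, and OGDR first for Dbh and Scg2. In none of these orders did the test separate rTMS-MSCs from MSCs.

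**Figure D2:**
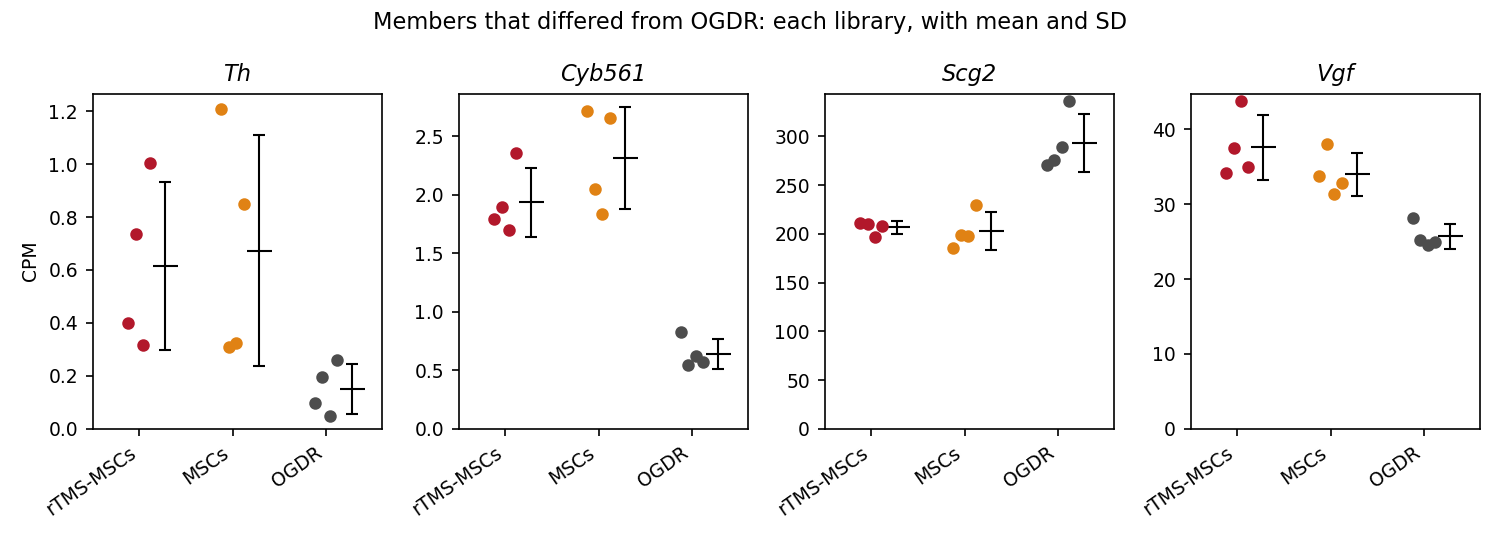
CPM (linear axes from 0) of Th, Cyb561, Scg2 and Vgf in each library, with the group mean and SD beside the points (n = 4). For each gene the OGDR points lie apart from the points of both groups with stem cells, above them for Scg2 and below them for the other 3.

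Promoter sequence is shown for the genes that share a binding motif of the cyclic AMP response element (CRE), since they include members that moved in opposite directions. The palindrome TGACGTCA, bound by CREB family factors, was searched on both strands in the RefSeq promoter windows of build GRCr8 (250 bases before to 50 after the annotated start). Of the 10 genes, 7 had a window (Ddc had 3), and the palindrome was in 3 of them, Th, Scg2 and Vgf. It was in 1.83% of all 33469 windows. The 250 bases before the start, all on the minus strand and written 5′ to 3′ along the gene, are given with the palindrome in capitals. The 3 printed stretches lie at chr1:207508219-207508468, chr9:88256867-88257116 and chr12:25277021-25277270. The annotated span of each gene reaches farther upstream than the start used here, by 58 bases in Th, 342 in Scg2 and 4783 in Vgf. The printed stretches of Scg2 and Vgf thus lie within the annotated span, while the palindrome of Th lies upstream of it.
Th: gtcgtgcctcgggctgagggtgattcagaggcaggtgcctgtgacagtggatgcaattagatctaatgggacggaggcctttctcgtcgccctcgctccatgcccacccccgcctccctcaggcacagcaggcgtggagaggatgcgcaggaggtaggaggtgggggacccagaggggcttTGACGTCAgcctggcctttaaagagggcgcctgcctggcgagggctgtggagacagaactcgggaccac
Scg2: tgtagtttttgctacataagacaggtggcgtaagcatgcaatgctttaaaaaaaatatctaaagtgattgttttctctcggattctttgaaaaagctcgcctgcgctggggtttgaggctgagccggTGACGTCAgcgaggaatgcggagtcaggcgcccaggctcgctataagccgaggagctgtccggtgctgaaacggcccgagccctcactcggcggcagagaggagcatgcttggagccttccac
Vgf: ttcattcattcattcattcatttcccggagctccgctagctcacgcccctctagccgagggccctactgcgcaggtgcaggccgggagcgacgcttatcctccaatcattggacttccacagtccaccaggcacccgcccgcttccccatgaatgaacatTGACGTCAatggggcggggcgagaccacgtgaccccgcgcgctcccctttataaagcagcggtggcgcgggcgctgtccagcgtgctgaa
The palindrome began 69 bases before the start in Th, 123 bases before it in Scg2 and 90 bases before it in Vgf. Its half-site TGACG, read on either strand, occurs within the palindrome itself and in 21.2% of all windows. Outside a palindrome it was found in Dbh (2 places) and Cyb561 (1 place), and in none of the windows of Ddc and Chgb. A match in these letters is a description of the sequence, and binding was not measured.

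The comparison of MSCs with OGDR asked what the addition of stem cells changed in deprived cells. Th, Cyb561 and Vgf rose and Scg2 fell, while Dbh and Slc18a1 did not pass the test. Among all tested genes 20.2% passed in this comparison (11.6% up and 8.63% down), against 4 of the 6 members tested, and the CPM of the 2 groups did not overlap for 24.7% of genes and for these 4 members. Th entered the tested set only through libraries with stem cells, where it was high, so its place in this count depends on the difference itself, and without it 3 of 5 members were called. The members had been chosen with earlier results of these data known, so the count is a description. Their median log2 fold change was 0.43, beside -0.00 over all genes tested.

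Cyb561 had 2.32 ± 0.437 CPM in MSCs and 0.642 ± 0.129 CPM in OGDR (mean ± SD, n = 4 each). That is a log2 fold change of 1.84 ± 0.284 (± standard error; QL test, adjusted p = 6.04e-05), or 3.58-fold, with a 95% interval of 2.38 to 5.40. Th had 0.673 ± 0.437 CPM in MSCs and 0.151 ± 0.0955 CPM in OGDR, a log2 fold change of 2.13 ± 0.629 (QL test, adjusted p = 0.0195) with a wide 95% interval of 1.77 to 10.9-fold. Th passed the filter through 4 libraries with at least 10 reads, all of them with stem cells, and its call was lost without OGDR 1, OGDR 3, MSCs 1 or MSCs 4 (adjusted p = 0.0577, 0.0643, 0.103 and 0.0508). Vgf averaged 34.0 ± 2.88 CPM in MSCs and 25.7 ± 1.68 CPM in OGDR, a rise of 0.40 ± 0.0922 on the log2 scale (adjusted p = 0.00323). Scg2 averaged 203 ± 19.1 CPM in MSCs and 293 ± 29.9 CPM in OGDR and fell by 0.53 ± 0.0707 on the log2 scale (adjusted p = 1.03e-05). These 2 precursors of granule peptides went opposite ways, Vgf to 1.32 times and Scg2 to 0.692 times its OGDR level.

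Dbh gave a log2 fold change of -0.61 ± 0.439 (adjusted p = 0.363), with a 95% interval from 0.347 to 1.23-fold. Slc18a1 gave 0.45 ± 0.496 (adjusted p = 0.581), with an interval from 0.668 to 2.81-fold. These intervals leave room for changes of the size seen in Scg2, and so neither gene is shown to be unchanged.

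Magnetic stimulation on top of stem cells was addressed by rTMS-MSCs against MSCs, where none of the 6 tested members passed. By the QL test of edgeR 0 members were called, 0 had an unadjusted p under 0.05, and DESeq2 and limma voom also called 0. DESeq2 gave no adjusted p for Th, Dbh and Slc18a1 here, so its result covers only Cyb561, Scg2 and Vgf. Among all tested genes 18.1% passed in this comparison (7.14% up and 10.9% down), and 19% had no overlap of the 2 groups, against 0 of the 6 members. The 2475 genes behind this share numbered 1313 without MSCs 1, 1006 without MSCs 3, 1480 without rTMS-MSCs 3 and 677 without both libraries numbered 3, with 0 members called each time. Scg2 was the most closely bounded, at 207 ± 6.73 CPM in rTMS-MSCs and 203 ± 19.1 CPM in MSCs, with a ratio of 1.02 and a 95% interval of 0.920 to 1.13. For Vgf the means were 37.6 ± 4.36 CPM in rTMS-MSCs and 34.0 ± 2.88 CPM in MSCs, with a ratio of 1.11 (0.969 to 1.26, adjusted p = 0.273). The ratio was 0.836 for Cyb561 (0.581 to 1.20), 0.912 for Th (0.437 to 1.90), 0.790 for Dbh (0.395 to 1.58) and 1.14 for Slc18a1 (0.578 to 2.25). The intervals of Th, Dbh and Slc18a1, each with few reads, are the widest.

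The combined treatment was set against OGDR alone in the last comparison, which shares its OGDR libraries with the comparison of MSCs and OGDR. Again Th, Cyb561 and Vgf rose and Scg2 fell, 4 of 6 tested members, where 32.4% of all tested genes passed (16.2% up and 16.2% down) and 30.3% had no overlap of the groups. The same limit holds for Th here, and without it 3 of 5 members were called. Cyb561 averaged 1.94 ± 0.293 CPM in rTMS-MSCs and 0.642 ± 0.129 CPM in OGDR, a log2 fold change of 1.58 ± 0.287 (QL test, adjusted p = 0.000296). Th averaged 0.614 ± 0.317 CPM in rTMS-MSCs and 0.151 ± 0.0955 CPM in OGDR, a log2 fold change of 2.00 ± 0.636 (adjusted p = 0.0205). It did not pass without OGDR 1, OGDR 3, rTMS-MSCs 2 or rTMS-MSCs 4 (adjusted p = 0.0547, 0.0703, 0.0508 and 0.0718). Vgf rose by 0.55 ± 0.0919 on the log2 scale (adjusted p = 0.000131), and Scg2 fell by 0.50 ± 0.0707 (adjusted p = 1.72e-05). Dbh stood at -0.95 ± 0.453 (adjusted p = 0.115). Without rTMS-MSCs 3, the highest Dbh library of its group at 0.848 CPM, the Dbh value was -1.43 and passed (adjusted p = 0.0391). Slc18a1 stood at 0.64 ± 0.487 (adjusted p = 0.338).

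**Figure D3:**
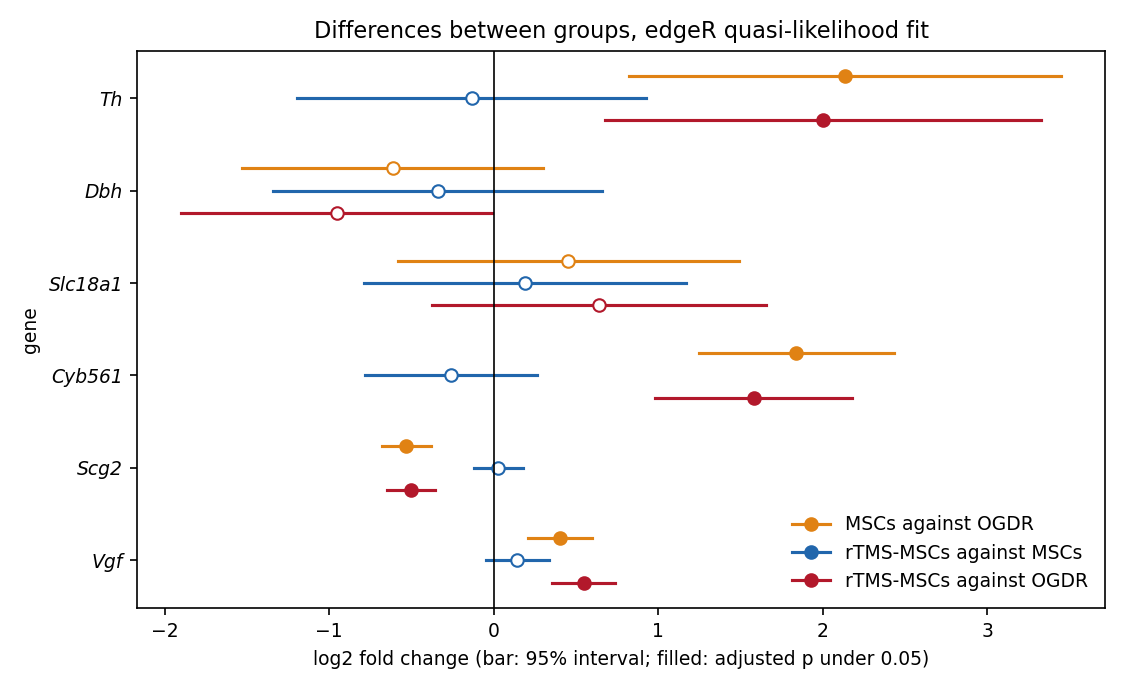
Log2 fold changes of the 6 tested members in the 3 comparisons, with 95% intervals; filled points have an adjusted p under 0.05. Scg2 lies left of 0 and Th, Cyb561 and Vgf right of 0 in both comparisons with OGDR, and every interval of rTMS-MSCs against MSCs spans 0.

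Genes that supply, carry and break down amines were read from a list of 13, of which 10 were tested. In MSCs against OGDR 3 of these rose and 0 fell, in rTMS-MSCs against MSCs 1 rose and 1 fell, and in rTMS-MSCs against OGDR 4 rose and 2 fell. For this list and those that follow, the shares of all tested genes that passed were 20.2%, 18.1% and 32.4% in the same order, so 2 of 10 in rTMS-MSCs against MSCs was near the share of all genes. The list medians were 0.02, 0.13 and 0.18 on the log2 scale, beside -0.00, 0.02 and 0.01 over all genes tested. Sult1a1, which sulfates phenols and catecholamines, had 31.0 ± 2.35 CPM in MSCs and 0.282 ± 0.166 CPM in OGDR (log2 fold change 6.74, QL test, adjusted p = 9.47e-16). It passed the filter only through libraries with stem cells, where it was high. The OGDR libraries, at 2 to 10 reads, were each below the filter's depth-scaled minimum. Its place among the 3 and the 4 genes that rose against OGDR thus depends on the difference itself. Gch1, the entry enzyme for the tetrahydrobiopterin that Th needs, rose by 0.29 ± 0.0731 in MSCs against OGDR (adjusted p = 0.00727). With stimulation, the ascorbate transporter Slc23a2 fell by 0.45 ± 0.104 against MSCs (adjusted p = 0.00704), and Spr, the last enzyme of tetrahydrobiopterin synthesis, rose by 0.26 ± 0.0888 (adjusted p = 0.0498). The Spr call was lost under median ratio scaling (adjusted p = 0.0519), under limma voom (0.0507) and in the fit of the 8 compared libraries (0.0728). It was also lost without both libraries numbered 3 (0.170) and without any one of OGDR 1, OGDR 3, OGDR 4, MSCs 1, MSCs 3, MSCs 4, rTMS-MSCs 2 and rTMS-MSCs 3 (up to 0.156). Slc18a2, the vesicular amine transporter related to Slc18a1, was present at 10.5 CPM in rTMS-MSCs, 10.1 CPM in MSCs and 9.35 CPM in OGDR, and passed in none of the comparisons (lowest adjusted p = 0.300).

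Among 15 genes that process granule contents, 13 were tested, and no common direction was seen. In MSCs against OGDR 1 rose and 1 fell, in rTMS-MSCs against MSCs 2 rose and 2 fell, and in rTMS-MSCs against OGDR 4 rose and 2 fell. Calls in this list, 2, 4 and 6 of 13, are to be read against the 20.2%, 18.1% and 32.4% of all genes. The list medians were 0.18, 0.03 and 0.06. Cpe, a carboxypeptidase that trims prohormones, rose by 0.28 ± 0.0635 in MSCs against OGDR (adjusted p = 0.00296), and Pam, which amidates peptides, fell by 0.27 ± 0.0711 (adjusted p = 0.00963). The convertase Pcsk2 had 6.78 ± 1.27 CPM in rTMS-MSCs and 4.34 ± 0.714 CPM in MSCs, a rise of 0.64 ± 0.202 (adjusted p = 0.0337). Pcsk1n, a granin-like inhibitor of a convertase, rose by 0.36 in the same comparison (adjusted p = 0.0349). Both calls were lost without any one of MSCs 1, MSCs 3, MSCs 4, rTMS-MSCs 2 and rTMS-MSCs 3, and that of Pcsk2 also without MSCs 2 (adjusted p up to 0.0933 for Pcsk2 and 0.119 for Pcsk1n). Against OGDR, rTMS-MSCs had both genes higher, by 1.04 for Pcsk2 (adjusted p = 0.000700) and 0.63 for Pcsk1n (adjusted p = 0.000326), and these calls were kept without any single library. Cpd, a carboxypeptidase of the trans-Golgi network, fell by 0.87 ± 0.162 in rTMS-MSCs against MSCs (adjusted p = 0.00233), also without any single library. Scg3, a granin that links Chga to granule membranes, had no count.

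The release machinery list had 18 genes, 17 in the table and 10 tested. In MSCs against OGDR 3 rose and 1 fell, in rTMS-MSCs against MSCs 1 rose and 1 fell, and in rTMS-MSCs against OGDR 2 rose and 1 fell, with medians of 0.01, -0.03 and -0.03. The 2 of 10 and 3 of 10 called in the comparisons with rTMS-MSCs were near the 18.1% and 32.4% of all genes. Rab3d, a small GTPase of secretory granules, rose by 0.62 ± 0.0803 in MSCs against OGDR (adjusted p = 7.66e-06). Vamp2, the vesicle SNARE, had 134 ± 7.79 CPM in rTMS-MSCs, 116 ± 2.44 CPM in MSCs and 89.3 ± 4.22 CPM in OGDR. It rose in every comparison, by 0.37 in MSCs against OGDR, 0.21 in rTMS-MSCs against MSCs and 0.58 in rTMS-MSCs against OGDR (adjusted p = 5.94e-05, 0.0159 and 1.51e-07), and without MSCs 3 the call against MSCs was lost (adjusted p = 0.0567). Sytl2, a Rab27 effector of granule docking, fell by 0.20 in rTMS-MSCs against MSCs (adjusted p = 0.0400), a call lost without any one of MSCs 1, MSCs 3, rTMS-MSCs 1, rTMS-MSCs 2 and rTMS-MSCs 3 (up to 0.128), and in the fit of the 8 compared libraries (0.0650). The calcium sensors Syt1 and Syt7 and the priming factors Cadps2 and Unc13b had no count in any library, while Snap25, the SNARE of the plasma membrane, averaged 7.11 CPM in rTMS-MSCs, 6.81 CPM in MSCs and 6.89 CPM in OGDR.

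Of 10 listed granule peptides, 3 were tested and 7 stayed under 1 CPM in all libraries. Penk, the enkephalin precursor, had 149 ± 20.7 CPM in rTMS-MSCs, 125 ± 12.2 CPM in MSCs and 102 ± 6.45 CPM in OGDR, and rose in all 3 comparisons (adjusted p = 0.0160 for MSCs against OGDR, 0.0401 for rTMS-MSCs against MSCs and 4.69e-05 for rTMS-MSCs against OGDR). Adm, the precursor of the vasodilator adrenomedullin, rose by 0.73 ± 0.0694 in MSCs against OGDR (adjusted p = 1.15e-07), and Nppb, a natriuretic peptide gene, fell by 0.78 ± 0.217 (adjusted p = 0.0130), a call lost without OGDR 4 (adjusted p = 0.0831). In rTMS-MSCs against MSCs Penk was the only one of the 3 that passed, and its call there was lost without any one of OGDR 1, OGDR 4, MSCs 1, MSCs 3 and rTMS-MSCs 3 (adjusted p up to 0.139), in the fit of the 8 compared libraries (0.0707) and without both libraries numbered 3 (0.400). In MSCs against OGDR the Penk call was lost without OGDR 3 or MSCs 4 (adjusted p = 0.0581 and 0.0664). Among the 5 tested chromaffin transcription factors Gata2 rose in rTMS-MSCs against OGDR, at 0.930 ± 0.295 CPM in rTMS-MSCs and 0.333 ± 0.130 CPM in OGDR (adjusted p = 0.0194), a call lost without OGDR 1, OGDR 4 or rTMS-MSCs 2 (adjusted p = 0.0606, 0.0567 and 0.0683). Gata2 passed the filter only through libraries with stem cells, where it was high, so its place among the tested genes depends on the difference. The OGDR libraries, at 4 to 10 reads of Gata2, were each below the filter's depth-scaled minimum. In MSCs against OGDR edgeR called 0 of the 5 factors (1 at an unadjusted p under 0.05, and 1 by DESeq2 and 0 by limma voom), and in rTMS-MSCs against MSCs 0 by each tool (0 unadjusted). Of 9 receptors typical of chromaffin cells, 2 were tested. The bradykinin receptor Bdkrb2 fell in MSCs, to 0.142 ± 0.112 CPM against 1.33 ± 0.531 CPM in OGDR (adjusted p = 0.000259). It passed the filter only through the 4 OGDR libraries, where it was high, so its place among the tested genes depends on the difference. In the same comparison Adcyap1r1, the receptor for the peptide PACAP, rose by 0.88 ± 0.251 (adjusted p = 0.0162), a call lost without MSCs 3 or MSCs 4 (adjusted p = 0.0705 and 0.0576). In rTMS-MSCs against OGDR Bdkrb2 again fell (adjusted p = 0.00312), and in rTMS-MSCs against MSCs 0 receptors were called by edgeR, DESeq2 or limma voom (0 unadjusted). Of the relatives of Cyb561, Cyb561d1, Cyb561d2 and Cyb561a3 were tested, and edgeR, DESeq2 and limma voom called 0 in each comparison. In each comparison with OGDR 1 of them, Cyb561a3, had an unadjusted p under 0.05 (log2 fold change 0.17 in both, adjusted p = 0.112 for MSCs and 0.0809 for rTMS-MSCs), and in rTMS-MSCs against MSCs 0 did.

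**Figure D4:**
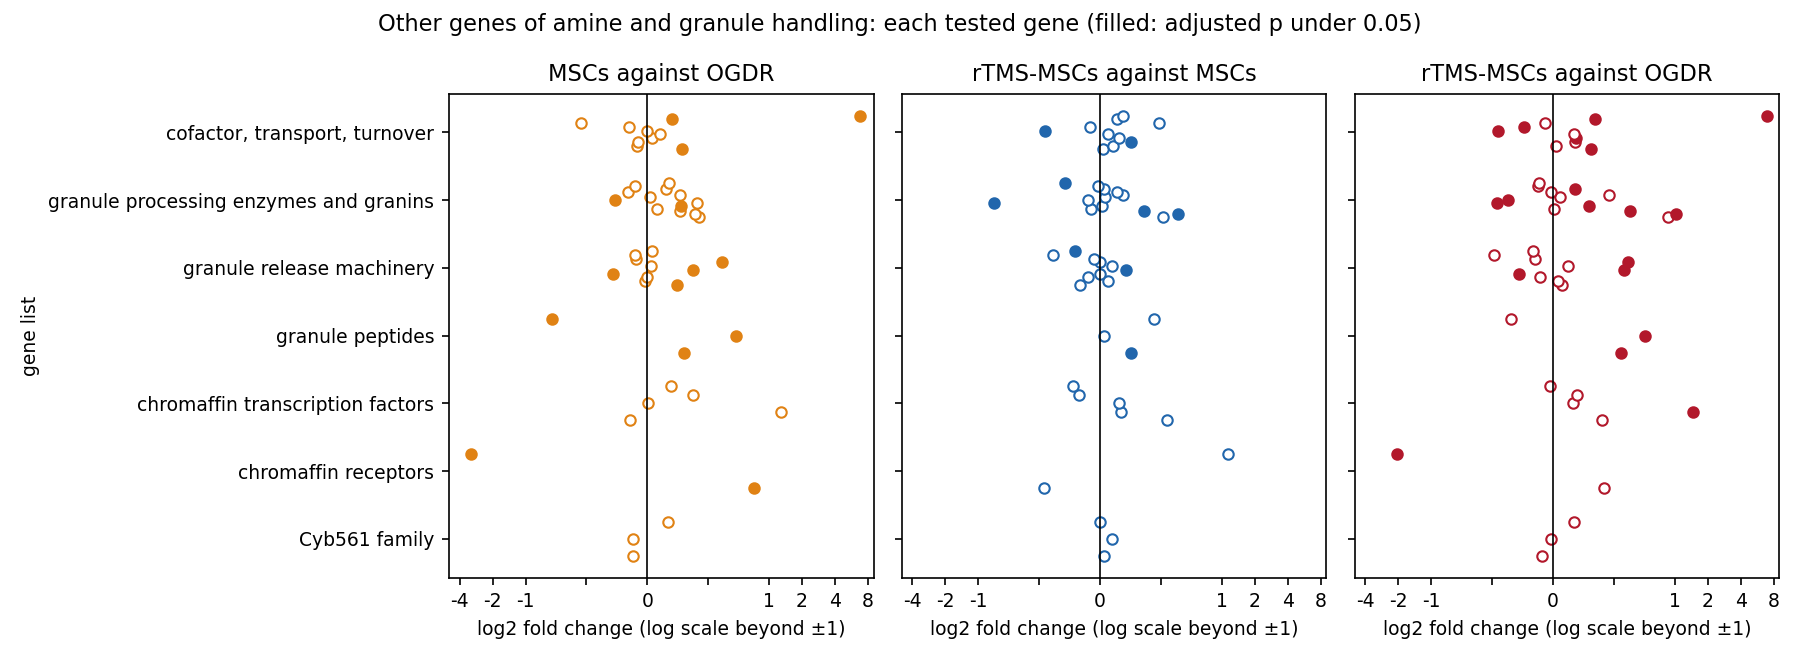
Log2 fold change of every tested gene of 7 lists of amine and granule handling in the 3 comparisons (linear within 1 unit of 0 and logarithmic beyond); filled points have an adjusted p under 0.05. Most points lie close to 0, Sult1a1 lies at 6.74 and 6.93 in the comparisons with OGDR, and Bdkrb2 lies at -3.16 and -2.03.

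Markers of other cell types were read in the same comparisons, and only some of them passed the test. Of 12 glial and Schwann cell markers 8 averaged at least 10 CPM, 3 stayed under 1 CPM in every library, and none was at 0 throughout. Their summed level ran from 1062 to 1153 CPM in rTMS-MSCs, from 1066 to 1121 CPM in MSCs and from 897 to 998 CPM in OGDR. Of the 9 tested, 5 rose and 0 fell in MSCs against OGDR, among them the glial filament Gfap and the myelin protein Pmp22, where 11.6% of all genes rose and 8.63% fell. In rTMS-MSCs against MSCs 2 of the 9 rose and 1 fell, and in rTMS-MSCs against OGDR 5 rose and 1 fell. The 11 neuronal markers summed to 123 to 162 CPM in rTMS-MSCs, 116 to 123 CPM in MSCs and 94.9 to 105 CPM in OGDR. Of these 11, 8 stayed under 1 CPM in every library, Elavl4 and Nefl at 0, so the sums rest almost wholly on Tubb3, Map2 and Prph. Of the 3 tested, 1 rose and 0 fell in MSCs against OGDR, and 1 rose and 1 fell in rTMS-MSCs against MSCs. In rTMS-MSCs against OGDR 2 rose and 1 fell. The 12 stromal markers summed to 434 to 538 CPM in rTMS-MSCs, 531 to 589 CPM in MSCs and 548 to 577 CPM in OGDR, with Lum at 0, and 4 stayed under 1 CPM in every library. Of 9 tested 3 rose and 1 fell in MSCs against OGDR, 1 rose and 2 fell in rTMS-MSCs against MSCs, and 3 rose and 2 fell in rTMS-MSCs against OGDR. Of 7 macrophage markers 2 were tested, with Adgre1 at 0 and sums of 64.4 to 78.0 CPM in rTMS-MSCs, 51.3 to 66.8 CPM in MSCs and 51.9 to 59.9 CPM in OGDR. Of 6 endothelial markers 5 were in the table and 2 tested, with Kdr at 0 and sums of 84.3 to 93.8 CPM in rTMS-MSCs, 89.6 to 96.8 CPM in MSCs and 88.1 to 102 CPM in OGDR. In every library 5 macrophage and 3 endothelial markers stayed under 1 CPM. Of those tested, 0 macrophage markers and 1 endothelial marker rose in MSCs against OGDR and 0 fell. In rTMS-MSCs against MSCs 0 of either list were called. In rTMS-MSCs against OGDR the macrophage marker Cd14 rose by 0.41 on the log2 scale, and 0 endothelial markers were called. The part of these markers in the changes of Th, Cyb561, Scg2 and Vgf was not tested.

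The genes most like each member over the 12 libraries were sought among 10250 others with a mean of at least 5 CPM, by Pearson correlation of log2 CPM. As the highest of so many values these are descriptions, and the points share their libraries and groups. For Scg2 they were the kinase Riok3 (r = 0.977), the growth factor Fgf9 (0.973) and the asparaginyl-tRNA synthetase Nars1 (0.971). Fgf9 had 7.42 CPM in rTMS-MSCs, 6.58 CPM in MSCs and 17.7 CPM in OGDR, and its log2 fold change in MSCs against OGDR was -1.42, beside -0.53 for Scg2. For Vgf they were Oaf (0.986), the inactive rhomboid protease Rhbdf1 (0.986) and Wdr54 (0.981). For Cyb561 they were Zcchc24 (0.978), the kinase Pak1 (0.973) and the unnamed gene AABR07007032.1 (0.970). Pak1 stood at 90.5 CPM in rTMS-MSCs, 88.8 CPM in MSCs and 40.3 CPM in OGDR. The closest genes of the scarce members reached 0.896 for Th (Cenpl), 0.894 for Dbh (Zfp639) and 0.821 for Slc18a1 (RGD1308706), where each member rests on few reads per library.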

How the data were processed

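RNA from rat PC12 cells was sequenced in 12 libraries of 3 groups (rTMS-MSCs, MSCs and OGDR, 4 each). The series text speaks of a microarray and 20 samples, but lists 4 per group as here. The authors deposited raw read counts per Ensembl gene. Per the submitters' processing notes, HISAT2 2.1.0, HTSeq 0.11.2, DESeq2 1.40.1 and build mRatBN7.2 were used; no source used here gives the strand setting, so reads of a gene and of an antisense gene cannot be told apart. HTSeq's summary lines were left out; 51.7% to 52.7% of reads fell on no feature. Table columns name the stimulated group MSCs-rTMS, and were matched to the titles that hold both parts.

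Counts were analysed in R 4.3.3 with edgeR 4.0.16: filterByExpr (minimum count 10, minimum total 15), TMM scaling, and 1 quasi-likelihood fit of 3 group means to 12 libraries. Standard errors are the log2 fold change divided by the root of F. Depth was 18246250 to 20471838 counts in genes. Alternatives were median ratio scaling, DESeq2 1.42.0, limma 3.58.1 (voom), other filters, fits of 8 libraries, a replicate block and leaving out libraries. The fit was tested on simulated data. Sequences come from RefSeq (GRCr8); protein sequences were not used here, and levels per kilobase were not computed because exon lengths were not at hand.

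The members and lists were chosen with earlier results of these data known. Named genes are the 10 members, up to 3 called genes of smallest p per list and comparison, and the 3 genes most like each tested member. Levels of further list genes (Slc18a2, Snap25, Cyb561a3 and genes at 0) are given outside that rule and were chosen after their values were seen. Some genes that the rule names are not reported here. No 2 libraries of a group agreed within counting error.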

Additional observations from a re-analysis of the deposited data

Results flagged for a closer look

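Among 133 sets of 4 values examined (members and named list genes, per group), 8 had a library far from the other 3, where chance gives about 1 in 20. Each value here is the gap to the nearest library divided by the range of the group. Of the members, Pnmt stood at 1 count in MSCs 3 and in OGDR 3 and at 0 in the others (1 in both groups). Chgb had 1 count in MSCs 4 alone and 0 in OGDR 2 alone (1 in both). These 4 rest on single reads. Among list genes, Sult1a1 was low in rTMS-MSCs 2, at 30.0 CPM beside 36.8 to 37.7 (0.875). Tek, an endothelial receptor, was low in rTMS-MSCs 3, at 9.22 CPM beside 13.0 to 13.7 (0.842), and high in OGDR 4, at 11.7 CPM beside 9.26 to 9.66 (0.837). Rab3d was high in OGDR 2, at 39.3 CPM beside 36.9 to 37.3 (0.83). No tested member had such a library in any group.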

How the results depend on the processing

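The 346 fold changes of members recomputed under the alternatives kept direction and call in 331 cases. The rises of Cyb561 and Vgf and the fall of Scg2 against OGDR passed under every alternative run. Th could not be tested at 1 CPM in 4 libraries, nor against OGDR in fits of the 8 compared libraries; Dbh and Slc18a1 could not at 1 CPM, nor Slc18a1 in fits of 8 libraries. DESeq2 gave no adjusted p for Th, Dbh and Slc18a1 in rTMS-MSCs against MSCs.

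Leaving out each library, the log2 fold change of Th ran from 1.69 to 2.51 in MSCs against OGDR (adjusted p from 0.0126 to 0.103), from 1.66 to 2.37 in rTMS-MSCs against OGDR (0.0125 to 0.0718), and from -0.48 to 0.32 in rTMS-MSCs against MSCs. Scg2 ran from -0.0125 to 0.0931 and Slc18a1 from -0.10 to 0.63 in the last, and Dbh from -1.43 to -0.71 in rTMS-MSCs against OGDR. Without both libraries numbered 3 of the groups with stem cells, chosen after seeing the data because they stood apart on a principal component (scores of 32.4 and -30.8), Dbh gave -1.43 and passed (adjusted p = 0.0410). The cause was not tested.

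Genes called in rTMS-MSCs against MSCs numbered 2475, 1006 to 3196 without single libraries (1006 without MSCs 3, 1313 without MSCs 1, 1480 without rTMS-MSCs 3) and 677 without both libraries numbered 3. With the replicate block, 4 members were called in MSCs against OGDR, 0 in rTMS-MSCs against MSCs and 4 in rTMS-MSCs against OGDR, as without it. The calls of Penk and Sytl2 in rTMS-MSCs against MSCs were lost with the block (adjusted p = 0.0663 and 0.0649). Without both libraries numbered 3, the calls of Pcsk2, Pcsk1n, Vamp2 and Sytl2 in that comparison were lost (QL test, adjusted p = 0.0858, 0.277, 0.133 and 0.239). Over all groups, 4 of 12 same-numbered pairs correlated over 0.1, and 1 of 12 libraries correlated best with its own number. Between OGDR and MSCs the same-numbered pairs were at 0.0648, 0.326, 0.375 and 0.261, and pairs of other numbers ran from -0.350 to 0.327. Same-numbered pairs ran from -0.419 to 0.210 between OGDR and rTMS-MSCs, and from -0.528 to 0.0745 between MSCs and rTMS-MSCs. Of 420 list counts, 371 stayed within 1.5 times, and 49 moved, most by 1 gene. Of 677 fold changes of called list genes recomputed, 59 lost their call and 0 reversed. The planned levels per kilobase were not run.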
